A study of Homo sapiens with 12 samples.

Results

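Long intergenic noncoding RNA genes that carry a LINC number were followed in the human prostate cancer cell lines DU145 and PC3 and in docetaxel-resistant sublines of both. The genes were selected by their measured level, together with their name. A gene was a member where its name began with LINC and a number and where it had at least 1 CPM (counts per 1e6 counts of the library) in all 3 libraries of at least 1 of the 4 groups. The rule found 235 members among 1030 LINC genes and 38611 genes in all. Altogether 16658 genes of every kind met the same level rule. Because levels in these libraries chose the members, counts and medians over members are a description. A member that entered only through the group in which it was high had to differ between groups. Just inside the rule lay LINC02742 with 1.01 CPM and LINC01117 with 1.02 CPM in their lowest PC3 R library, and LINC00319 with 1.04 CPM in its lowest DU145 NC library. Just outside lay LINC02449 with 0.998 CPM in DU145 R, LINC00621 with 0.955 CPM in DU145 NC and LINC00471 with 0.962 CPM in PC3 NC.

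DU145 and PC3 are established lines, derived from a brain and a bone metastasis. Docetaxel, a taxane drug used in prostate cancer, stabilises microtubules and thereby blocks mitosis. The DU145 R group is DU145 grown in rising docetaxel, from 10 to an IC50 of 1800, and DU145 NC is the DU145 control. The PC3 R group is PC3 treated likewise, from 0.5 to an IC50 of 15, and PC3 NC is the PC3 control. The submitters give these concentrations in nm/ml, and what that unit stands for is not stated, so doses are not compared between lines. Whether a subline is 1 clone, and whether docetaxel was present at harvest, is not given in the sources used here. Each group had 3 libraries. No label says that these are separate cultures, and the p-values below therefore reflect only how far the libraries of a group differ, which may be technical.

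Poly(A)-selected RNA was sequenced, and the 12 libraries held between 62513103 and 72530254 counts, with 25695 to 26401 genes above 0. Correlation with the own group averaged between 0.989 and 0.992, lowest for PC3 R library 1. The labelled cells carried epithelial markers in all 4 groups. KRT8, a keratin of simple epithelia, averaged 685 ± 22.4 CPM in DU145 R, 392 ± 15.7 in DU145 NC, 66.3 ± 2.22 in PC3 R and 243 ± 2.47 in PC3 NC (SD, n = 3 each). CTNNA1, known to be lost in PC3, averaged 383 and 519 CPM in DU145 R and DU145 NC, against 2.23 and 2.91 CPM in PC3 R and PC3 NC. The leukocyte markers PTPRC, CD3E and CD14 lay between 0 and 0.567 CPM in all groups. Of 4 fibroblast markers, COL1A1 averaged 4.92 ± 1.45 CPM in DU145 R, 8.61 ± 1.77 in DU145 NC, 11.5 ± 1.45 in PC3 R and 103 ± 5.87 in PC3 NC, COL1A2 lay between 1.46 and 16.1 CPM, and DCN and LUM were at most 1.76 and 0.274 CPM (group means). The endothelial marker PECAM1 averaged 27.3 ± 3.97 CPM in PC3 R and 18.3 ± 0.769 in PC3 NC, and at most 0.325 CPM in DU145 groups, while VWF and CDH5, which define endothelium, were at 0.253 CPM or less. The part of other cells in the results was not tested. In bulk RNA, fewer cells that express a gene and less RNA per cell cannot be told apart.

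LINC names mark long noncoding RNAs that were catalogued from genomic position, without a shared function. Such RNAs are usually made by RNA polymerase II, spliced and polyadenylated. Known modes of action include recruiting chromatin proteins, regulating a neighbouring gene in cis and binding microRNAs or proteins, and most members have no established role. They are known for levels that are low and that differ strongly between cell types, which makes them common candidates for markers in cancer.

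The promoters of 8 members are printed: 6 stand for the largest fitted changes between resistant and parental cells, of which some rest on few counts, and 2 for abundant genes. RefSeq promoters (GRCh38.p14, from 250 bases before to 50 bases after the start) matched 162 members, and for 118 the RefSeq start lay within 1 kb of the deposited gene start. The first set holds the named members with the largest changes in DU145 among those 118, namely LINC00173 at chr12:116533172-116533471 (plus strand) and LINC01116 at chr2:176637560-176637859 (minus strand), lower in DU145 R, and LINC00632 at chrX:140709509-140709808 (plus strand), higher in DU145 R. Capitals mark matches, on either strand, to the TATA box TATAAA, the CCAAT box, the GC box GGGCGG, the AP-1 core TGANTCA, the E-box core CACGTG or the cyclic AMP element TGACGTCA, and no matches overlapped.
LINC00173: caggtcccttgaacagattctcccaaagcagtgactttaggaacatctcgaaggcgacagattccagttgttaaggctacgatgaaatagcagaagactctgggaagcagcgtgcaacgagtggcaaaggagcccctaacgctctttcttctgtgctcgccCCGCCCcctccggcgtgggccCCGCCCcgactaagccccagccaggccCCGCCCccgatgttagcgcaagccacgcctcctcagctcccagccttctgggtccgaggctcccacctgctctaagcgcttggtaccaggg
LINC01116: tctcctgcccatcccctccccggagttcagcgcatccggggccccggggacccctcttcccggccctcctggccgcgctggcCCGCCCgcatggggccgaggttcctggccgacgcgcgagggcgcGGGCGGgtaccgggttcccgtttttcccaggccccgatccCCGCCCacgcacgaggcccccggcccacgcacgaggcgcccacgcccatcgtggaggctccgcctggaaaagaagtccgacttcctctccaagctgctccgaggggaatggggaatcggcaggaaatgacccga
LINC00632: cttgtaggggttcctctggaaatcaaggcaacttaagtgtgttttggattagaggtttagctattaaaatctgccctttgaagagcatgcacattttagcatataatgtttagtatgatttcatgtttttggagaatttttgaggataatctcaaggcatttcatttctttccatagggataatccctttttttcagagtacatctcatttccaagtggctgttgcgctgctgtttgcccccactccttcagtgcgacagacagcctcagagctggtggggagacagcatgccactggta
The LINC00173 and LINC01116 windows each held 3 GGGCGG boxes, a motif of GC-rich promoters, and the LINC00632 window held none of the 6 motifs.

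The second set holds the members chosen in the same way in PC3, all higher in PC3 R. These were LINC01322 at chr3:165206698-165206997 (plus strand), LINC02009 at chr3:46423618-46423917 (minus strand) and LINC02261 at chr4:27217229-27217528 (plus strand).
LINC01322: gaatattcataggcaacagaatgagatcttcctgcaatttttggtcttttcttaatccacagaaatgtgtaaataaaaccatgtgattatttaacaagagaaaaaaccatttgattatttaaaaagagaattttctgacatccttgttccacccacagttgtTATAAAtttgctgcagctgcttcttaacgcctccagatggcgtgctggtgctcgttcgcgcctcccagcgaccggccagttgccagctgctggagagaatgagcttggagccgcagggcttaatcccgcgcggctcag
LINC02009: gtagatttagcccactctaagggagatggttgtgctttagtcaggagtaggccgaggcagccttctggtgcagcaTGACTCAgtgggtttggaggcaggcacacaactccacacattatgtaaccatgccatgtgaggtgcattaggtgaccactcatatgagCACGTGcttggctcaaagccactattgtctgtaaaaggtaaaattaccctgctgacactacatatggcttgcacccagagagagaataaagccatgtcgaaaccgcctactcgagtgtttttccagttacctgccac
LINC02261: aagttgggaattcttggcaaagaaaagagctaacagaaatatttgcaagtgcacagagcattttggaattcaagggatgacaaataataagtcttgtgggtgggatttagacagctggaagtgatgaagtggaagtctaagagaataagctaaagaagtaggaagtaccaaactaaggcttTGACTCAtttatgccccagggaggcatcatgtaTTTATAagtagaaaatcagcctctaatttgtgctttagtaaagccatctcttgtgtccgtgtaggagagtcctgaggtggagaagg
The TATAAA box, a core promoter element, occurred once in the LINC01322 window and once in the LINC02261 window. TGANTCA occurred in the LINC02009 and LINC02261 windows, and LINC02009 also held CACGTG.

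The last set was chosen after values were seen, because both genes were abundant in some groups and among the most reduced in PC3 R. LINC01547 lies at chr21:44939864-44940163 and LINC00665 at chr19:36331669-36331968, both on the minus strand.
LINC01547: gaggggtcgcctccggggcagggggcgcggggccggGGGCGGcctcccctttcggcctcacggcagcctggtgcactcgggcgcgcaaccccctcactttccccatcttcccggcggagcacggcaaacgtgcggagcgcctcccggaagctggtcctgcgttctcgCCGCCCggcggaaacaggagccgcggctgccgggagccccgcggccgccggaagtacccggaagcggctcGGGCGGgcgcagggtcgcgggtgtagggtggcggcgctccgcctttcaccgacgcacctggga
LINC00665: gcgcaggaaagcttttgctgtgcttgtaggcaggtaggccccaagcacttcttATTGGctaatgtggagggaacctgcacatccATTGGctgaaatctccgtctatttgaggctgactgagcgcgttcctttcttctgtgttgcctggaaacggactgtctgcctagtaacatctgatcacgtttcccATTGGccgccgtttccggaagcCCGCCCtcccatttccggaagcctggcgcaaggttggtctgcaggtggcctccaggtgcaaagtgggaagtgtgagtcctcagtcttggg
The LINC01547 window had 3 GGGCGG boxes, and the LINC00665 window had 3 CCAAT boxes and 1 GGGCGG box. Over all 162 matched member promoters, GGGCGG was found in 43.8%, against 45.0% of all 35116 promoters in the table. CCAAT was found in 37.7% of member promoters against 34.6% of all, TATAAA in 13.6% against 11.5%, TGANTCA in 14.8% against 7.71%, CACGTG in 8.02% against 7.26% and TGACGTCA in 2.47% against 1.85%. The median GC content of the member windows was 57.7%, against 58.7% for all promoters. A match is a string of letters and was not tested as a binding site.

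The members were scattered over the 4 groups. Only 62 of the 235 (26.4%) met the rule in all 4 groups, whereas 73.1% of all genes at the level rule did. Another 29 met it in 3 groups, 69 in 2 groups and 75 in 1 group. The 75 are 31.9% of members, against 6.005% of the 13473 protein-coding genes at the level rule. The 1298 other long noncoding RNA genes at the level rule were much like the members in this. Of them 30.4% met the rule in 1 group and 31.8% in all 4 groups. Among the 69 members at the rule in 2 groups, line was the commonest division, with 31 members in both DU145 groups alone and 29 in both PC3 groups alone. Single groups held 29 members in PC3 R, 20 in PC3 NC, 13 in DU145 R and 13 in DU145 NC.

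**Figure D1:**
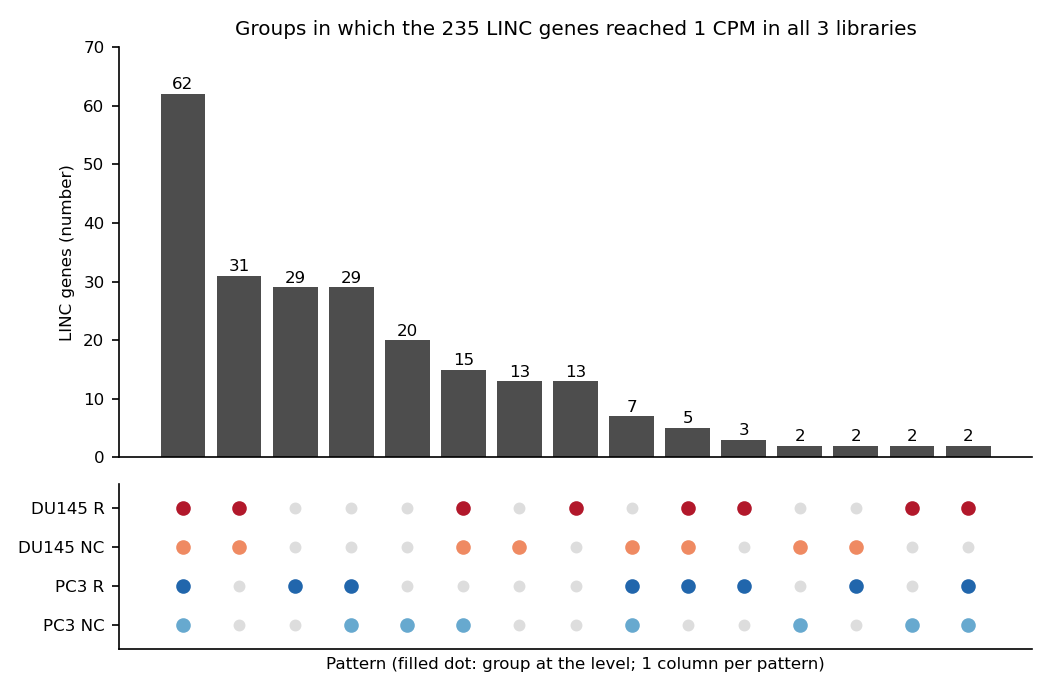
Bars give the number of members (vertical axis) for each combination of groups in which the level rule was met, and filled dots under a bar mark those groups. The bar of all 4 groups holds 62 members, and those of both DU145 groups and both PC3 groups hold 31 and 29.

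Levels were low. The median of the highest group mean was 1.16 FPKM (fragments scaled by gene length and library size, comparable between genes) for members. It was 8.40 FPKM for protein-coding genes and 1.64 FPKM for the 1298 other long noncoding RNA genes at the level rule. The median coefficient of variation between libraries of a group was 14.0% for members and 6.33% for protein-coding genes. Together the members took 0.167% ± 0.00637 of counts in DU145 R, 0.130% ± 0.00527 in DU145 NC, 0.215% ± 0.00994 in PC3 R and 0.266% ± 0.00681 in PC3 NC (SD, n = 3 each). A few members made up much of this in PC3, since the top 3 held 43.0% of member counts in PC3 R and 48.5% in PC3 NC. In DU145 R and DU145 NC the top 3 held 21.2% and 21.7%. The number of members without any count was 26 in DU145 R, 18 in DU145 NC, 7 in PC3 R and 12 in PC3 NC. The heat map of levels shows these gaps as dark cells that run through whole groups of libraries.

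**Figure D2:**
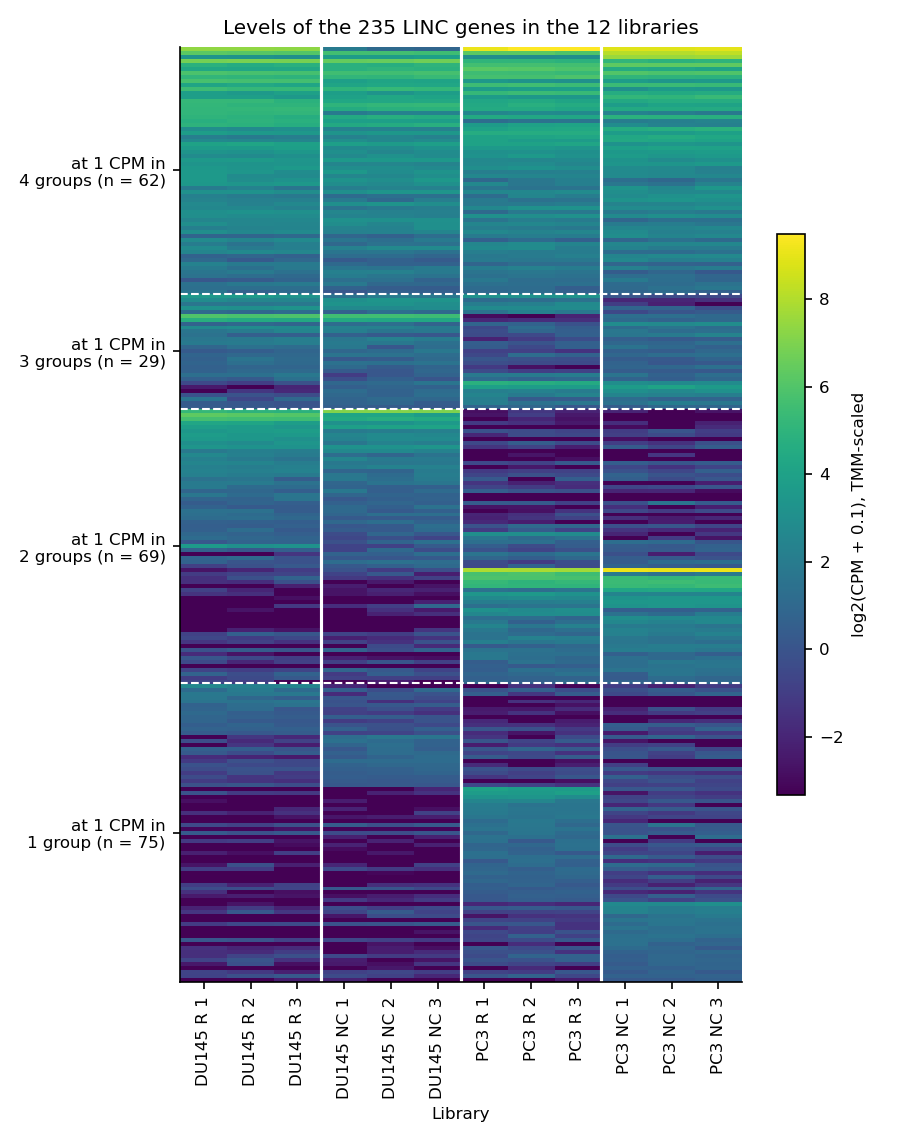
Colour gives log2(CPM + 0.1) of each of the 235 members (rows) in the 12 libraries (columns, 3 per group), with members ordered by the number of groups at the level rule. Libraries of 1 group look alike, and the rows below the 62 members of all 4 groups change colour mainly at the borders between groups.

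Chromosomes differed in how many of their LINC genes were expressed. Over all chromosomes 235 of 1030 LINC genes were members. Chromosome 1 had 33 members of 129 LINC genes (25.6%), chromosome 2 had 20 of 92 (21.7%) and chromosome 14 had 19 of 58 (32.8%). Chromosome 19 had 9 members of 17 LINC genes, while chromosome 13 had 1 of 51, LINC01232. The X chromosome had 10 of 21.

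Per length, LINC02582 was the most abundant member in 3 of the 4 groups. LINC02582, an RNA reported in radioresistance of breast cancer, lies at chr18:73324941-73349879 (plus strand, GRCh38 coordinates as in the files). Its level was 65.3 ± 1.7 FPKM in DU145 R, 1.02 ± 0.44 in DU145 NC, 254 ± 37 in PC3 R and 190 ± 6.8 in PC3 NC (SD, n = 3 each). The next in PC3 was LINC00261, known as an RNA needed for FOXA2 induction in endoderm, with 39.6 ± 3.2 FPKM in PC3 R and 96.97 ± 2.8 FPKM in PC3 NC. Next in PC3 NC was LINC01547 with 39.0 ± 1.3 FPKM, followed by LINC00342 with 32.4 ± 2.2 FPKM and LINC01351 with 16.9 ± 1.2 FPKM. In PC3 R, LINC00857 had 26.0 ± 2.7 FPKM and LINC00973 25.5 ± 2.5 FPKM, which do not differ beyond their spread, and LINC02246 had 14.2 ± 1.9 FPKM.

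In DU145 R, LINC02582 was followed by LINC01963 with 16.5 ± 0.59 FPKM. LINC00648 with 9.02 ± 1.0 FPKM, LINC00342 with 8.40 ± 0.43 FPKM and LINC00963 with 8.32 ± 0.37 FPKM came next and overlapped in spread. LINC00963 was first described in the androgen-independent growth of prostate cancer cells. In DU145 NC the order was LINC00707 with 13.9 ± 0.31 FPKM, LINC00857 with 12.2 ± 0.85 FPKM, LINC00648 with 7.53 ± 0.68 FPKM, LINC00963 with 6.83 ± 0.71 FPKM and LINC00205 with 6.56 ± 0.48 FPKM. The last 3 overlapped in spread. At 100 CPM or more were 2 members in DU145 R, 1 in DU145 NC, 2 in PC3 R and 4 in PC3 NC.

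**Figure D3:**
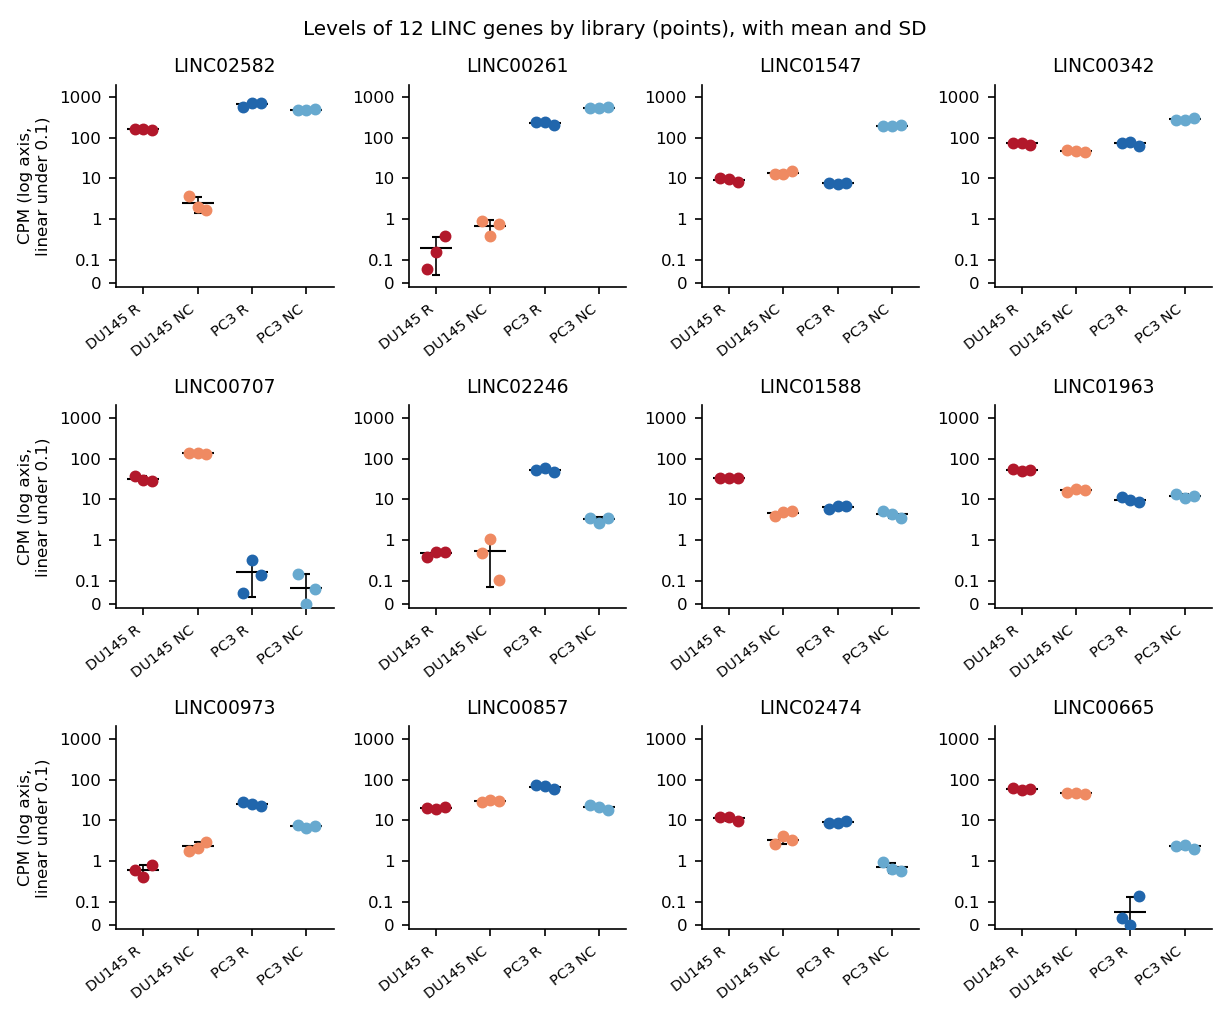
Points are CPM per library on a logarithmic axis that is linear under 0.1 CPM, and bars are mean and SD of 3 libraries, for 12 members in DU145 R, DU145 NC, PC3 R and PC3 NC. LINC02582 lies between 156 and 164 CPM in DU145 R, above its 1.71 to 3.73 CPM in DU145 NC, and LINC01547 lies between 7.24 and 7.90 CPM in PC3 R, below its 189 to 202 CPM in PC3 NC.

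Which LINC genes differed between DU145 R and DU145 NC was asked with edgeR's quasi-likelihood test over 24128 genes, and a gene was called at a Benjamini-Hochberg adjusted p under 0.05. Of the 235 members 69 were called (29.4%), 40 higher and 29 lower in DU145 R. Over all genes tested 39.6% were called, 18.9% higher and 20.7% lower, and over all genes at the level rule 54.1%. The share of members called was thus under both backgrounds. The number called lower was 19 without DU145 NC library 2 and likewise 19 without DU145 R library 2. A change of at least 2-fold was called in 46 members, 23 in each direction, where 13.0% of all genes tested had one. The median log2 change was 0.00 over members and 0 over all genes. Of the 62 members at the rule in all 4 groups 27 were called (43.5%), 22 higher and 5 lower, against 61.8% of all genes at the rule in 4 groups.

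The largest difference of an abundant member was that of LINC02582. It had 163, 164 and 156 CPM in DU145 R, against 3.73, 2.01 and 1.71 CPM in DU145 NC. The 3 resistant libraries lay far above the parental ones, a 64.5-fold difference (log2 change 6.01 ± 0.24, SE, adjusted p = 4.61e-08). LINC02864, which lies on the same chromosome at chr18:73151241-73264480 (minus strand), had 50.7, 46.3 and 45.6 CPM in DU145 R, against 21.5, 25.5 and 22.1 CPM in DU145 NC. It was 2.06-fold higher (log2 change 1.05 ± 0.21, adjusted p = 0.00172). LINC01322 at chr3:165206929-165846519 (plus strand) had 80.6, 74.8 and 65.4 CPM in DU145 R, against 18.1, 18.2 and 13.3 CPM in DU145 NC. The groups did not overlap (log2 change 2.15 ± 0.27, adjusted p = 0.000185). It overlaps BCHE, the butyrylcholinesterase gene, on the other strand, whose level was 69.8 ± 1.7 CPM in DU145 R and 0.199 ± 0.072 CPM in DU145 NC (log2 change 8.44 ± 0.30). The strand setting of the counting is not given in the sources used here, so reads of the 2 genes may have been mixed.

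LINC01588 at chr14:49927571-50091555 (minus strand) had 34.0, 33.8 and 34.2 CPM in DU145 R, against 3.84, 4.79 and 5.06 CPM in DU145 NC. It was 7.44-fold higher, with little spread among the resistant libraries (log2 change 2.90 ± 0.16, adjusted p = 6.71e-10). LINC01963 at chr2:216217045-216220192 (plus strand) had 53.9, 49.7 and 51.1 CPM in DU145 R, against 14.8, 17.9 and 16.9 CPM in DU145 NC. It was 3.12-fold higher (log2 change 1.64 ± 0.12, adjusted p = 1.5e-08) and overlaps no other gene.

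The other members with the highest log2 changes were low in DU145 NC. LINC02236 had 12.2, 8.21 and 9.21 CPM in DU145 R, against 0.491, 0.451 and 1.18 CPM in DU145 NC (log2 change 3.80 ± 0.40, adjusted p = 1.32e-06, and 4.39 without DU145 NC library 3). LINC01949, now named MIR4280HG, had 6.13, 4.65 and 5.48 CPM in DU145 R, against 0.159, 0 and 0 CPM in DU145 NC. Its log2 change of 6.60 ± 1.301 (adjusted p = 0.00136) was 11.48 without DU145 NC library 1, the only parental library with a count. LINC02084 averaged 0.658 ± 0.31 CPM in DU145 R and 0.0788 ± 0.045 CPM in DU145 NC (log2 change 3.02 ± 0.52, adjusted p = 0.000184). LINC00632, the source transcript of the circular RNA CDR1-AS, had 0.241, 0.216 and 0.773 CPM in DU145 R, against 0, 0.0901 and 0 CPM in DU145 NC, and its promoter is shown above. Its log2 change of 3.70 ± 0.84 (adjusted p = 0.00442) was 7.78 without DU145 NC library 2 and 2.86 without DU145 R library 3, and the circular RNA itself was not measured. LINC01607 averaged 0.580 ± 0.35 CPM in DU145 R and 0.0542 ± 0.051 CPM in DU145 NC (log2 change 3.37 ± 0.77, adjusted p = 0.00221, and 4.16 without DU145 NC library 1). Tested on FPKM with limma and a pseudocount of 1, LINC00632 and LINC01607 were not called (adjusted p = 0.881 and 0.0607).

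Among members lower in DU145 R, LINC00707 was the most abundant. LINC00707 at chr10:6779549-6842906 (plus strand) had 36.9, 30.5 and 28.7 CPM in DU145 R, against 136, 136 and 129 CPM in DU145 NC. It was 4.17-fold lower (log2 change -2.06 ± 0.20, adjusted p = 5.68e-06). LINC00857, which reached 26.0 FPKM in PC3 R, was lower in DU145 R, at 19.9, 19.4 and 20.7 CPM, against 28.0, 31.9 and 29.3 CPM in DU145 NC (log2 change -0.57 ± 0.11, adjusted p = 0.000378). The members with the lowest log2 changes were near 0 in DU145 R and about 1 to 3 CPM or less in DU145 NC. LINC01116, printed above with its promoter, had 0.0904, 0 and 0.151 CPM in DU145 R, against 1.39, 1.73 and 1.52 CPM in DU145 NC (log2 change -4.22 ± 0.43, adjusted p = 1.09e-06, and -5.02 without DU145 R library 3). LINC01117, which overlaps LINC01116 on the other strand, had no count in DU145 R, against 0.347, 0.165 and 0.369 CPM in DU145 NC. LINC00173 had no count in DU145 R, against 0.0722, 0.721 and 0.661 CPM in DU145 NC. Set against a floor of 3 counts over the DU145 R group, LINC01117 was at least 19.3-fold lower (adjusted p = 6.38e-05) and LINC00173 at least 31.4-fold lower (adjusted p = 0.00035). LINC00173 was not called with limma on log2(FPKM + 1) (adjusted p = 0.128). Counts here varied more than independent counts would, with a variance of 7.69 to 8.39 times the mean at 5 to 10 counts, and such bounds may be too high by that factor.

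The remaining members of this kind rested on a few counts in DU145 R. LINC02381 averaged 0.152 CPM there and 1.68 CPM in DU145 NC, 10.9-fold lower (log2 change -3.45 ± 0.58, adjusted p = 0.000149), and it overlaps SMUG1. LINC02454 had 0, 0 and 0.288 CPM in DU145 R, against 1.57, 1.41 and 2.35 CPM in DU145 NC (log2 change -4.18 ± 1.09, adjusted p = 0.0075, and -9.89 without DU145 R library 3). LINC00920 had 0, 0.324 and 0.182 CPM in DU145 R, against 2.17, 1.55 and 2.25 CPM in DU145 NC (log2 change -3.55 ± 0.61, adjusted p = 0.000289). Without DU145 R library 1 it was -2.96, and without DU145 R library 2 it was -4.43. LINC01694 averaged 0.168 ± 0.16 CPM in DU145 R and 2.84 ± 0.52 CPM in DU145 NC (log2 change -4.06 ± 1.13, adjusted p = 0.0116), with -3.48 and -4.94 without the same libraries. LINC01348 averaged 0.138 ± 0.16 CPM in DU145 R and 1.91 ± 0.49 CPM in DU145 NC (log2 change -3.77 ± 1.18, adjusted p = 0.0198). It was -3.18 without DU145 R library 1 and -5.12 without DU145 R library 2, and it was not called without DU145 NC library 2 (adjusted p = 0.0556) or DU145 R library 3 (adjusted p = 0.0775).

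The same question in PC3 gave 104 of 235 members called (44.3%), 48 higher and 56 lower in PC3 R. Over all genes tested 44.0% were called, 22.4% higher and 21.6% lower, and over all genes at the level rule 59.7%. The share of members called was close to that of all genes tested and under that of genes at the level rule. A change of at least 2-fold was called in 80 members, 38 higher and 42 lower, where 17.1% of all genes tested had one. The median log2 change was -0.08 over members and 0 over all genes. Of the 62 members at the rule in all 4 groups 32 were called (51.6%), 13 higher and 19 lower, against 66.3% of all genes at the rule in 4 groups.

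LINC02246 was the most abundant of the members that rose at least 10-fold in PC3 R. LINC02246 at chr21:14819699-14917235 (minus strand) had 53.4, 60.0 and 46.0 CPM in PC3 R, against 3.58, 2.68 and 3.56 CPM in PC3 NC. It was 16.2-fold higher (log2 change 4.02 ± 0.41, adjusted p = 1.11e-05), and 2 other genes overlap it on the same strand. LINC00857 at chr10:80207372-80219641 (plus strand) had 74.0, 69.1 and 59.5 CPM in PC3 R, against 23.8, 21.3 and 17.5 CPM in PC3 NC. The groups did not overlap (3.23-fold higher, log2 change 1.69 ± 0.11, adjusted p = 2.74e-09). LINC00973, an RNA reported to regulate the immune checkpoint protein Siglec-15, lies at chr3:98981058-98983096 (plus strand). It had 27.9, 25.4 and 22.7 CPM in PC3 R, against 7.73, 6.55 and 7.24 CPM in PC3 NC, 3.53-fold higher (log2 change 1.82 ± 0.21, adjusted p = 3.06e-06).

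LINC02009 at chr3:46416524-46423591 (minus strand) and LINC01204 on the X chromosome were clearly expressed in PC3 R and low in PC3 NC. LINC02009 had 13.4, 12.4 and 15.4 CPM in PC3 R, against 0.0591, 0.390 and 0.265 CPM in PC3 NC, a 57.6-fold difference (log2 change 5.85 ± 0.80, adjusted p = 5.57e-05). LINC01204 had 16.4, 13.6 and 12.9 CPM in PC3 R, against 1.01, 0.998 and 0.624 CPM in PC3 NC, a 16.3-fold difference (log2 change 4.03 ± 0.63, adjusted p = 0.000306). LINC02827 had 7.89, 8.06 and 6.90 CPM in PC3 R, against 0.148, 0 and 0.328 CPM in PC3 NC. It was 47.5-fold higher (log2 change 5.57 ± 0.73, adjusted p = 1.93e-05, and 6.63 without PC3 NC library 3). LINC02261, whose promoter window held TATAAA and TGANTCA, had 2.10, 3.42 and 2.37 CPM in PC3 R, against 0.163, 0 and 0 CPM in PC3 NC. Its log2 change was 5.53 ± 1.19 (adjusted p = 0.00309), or 10.44 without PC3 NC library 1, and DESeq2 did not call it (adjusted p = 0.159). LINC01665 averaged 3.33 ± 0.64 CPM in PC3 R and 0.169 ± 0.17 CPM in PC3 NC (log2 change 4.29 ± 0.96, adjusted p = 0.00399, and 5.31 without PC3 NC library 2). It shares 97.1% identity over 1034 bases with MIR663AHG, and reads may have been split between them. LINC01060 had 0.150, 0.239 and 0.767 CPM in PC3 R and no count in PC3 NC, at least 25.8-fold higher (adjusted p = 5.1e-05). Its fitted log2 change of 7.68 was 6.68 without PC3 R library 3, and limma on log2(FPKM + 1) did not call it (adjusted p = 0.278).

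On the lower side, LINC01547 lost most of its high parental level. LINC01547 at chr21:44932814-44939931 (minus strand) had 7.80, 7.24 and 7.90 CPM in PC3 R, against 191, 189 and 202 CPM in PC3 NC. It was 25.4-fold lower (log2 change -4.67 ± 0.09, adjusted p = 4.36e-15), to a level close to its 9.96, 9.46 and 8.10 CPM in DU145 R. LINC00261 at chr20:22547671-22578642 (minus strand) had 242, 234 and 206 CPM in PC3 R, against 544, 524 and 557 CPM in PC3 NC. The groups did not overlap (2.38-fold lower, log2 change -1.25 ± 0.15, adjusted p = 7.01e-05). LINC00342 at chr2:95807052-95833963 (minus strand) had 75.6, 77.1 and 63.2 CPM in PC3 R, against 276, 263 and 302 CPM in PC3 NC, 3.90-fold lower (log2 change -1.96 ± 0.07, adjusted p = 9.79e-12). It shares 99.0% identity over 400 bases with a second locus. LINC00511 averaged 0.406 FPKM in PC3 R and 1.31 FPKM in PC3 NC (3.14-fold lower by CPM, log2 change -1.65 ± 0.13, adjusted p = 2.43e-08).

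LINC00665, from which a micropeptide has been reported, lies at chr19:36259540-36331756 (minus strand). It had 0.0299, 0 and 0.142 CPM in PC3 R, against 2.39, 2.48 and 1.98 CPM in PC3 NC, and 43.4 to 62.1 CPM in the DU145 libraries. It was 37.1-fold lower in PC3 R (log2 change -5.21 ± 0.34, adjusted p = 1.27e-08, and -7.04 without PC3 R library 3). LINC01139, also known as LINK-A, had 0.165, 0.223 and 0.156 CPM in PC3 R, against 6.64, 6.97 and 8.11 CPM in PC3 NC. It was 39.6-fold lower (log2 change -5.31 ± 0.60, adjusted p = 4.98e-06). LINC00865 had 3 counts over PC3 R and 123 over PC3 NC, a ratio of 41.9 (counting interval 14.0 to 206, 95%, counting error only) lower in PC3 R. Its log2 change of -5.25 ± 0.92 (adjusted p = 0.000185) was -8.36 without PC3 R library 3. LINC02591 had 0, 0.0796 and 0 CPM in PC3 R, against 0.562, 0.265 and 0.515 CPM in PC3 NC (log2 change -4.05 ± 0.70, adjusted p = 0.000172). It was -7.89 without PC3 R library 2 and -3.46 without PC3 R library 3, it was not called with limma on log2(FPKM + 1) (adjusted p = 0.193), and it shares 99.7% identity over 3389 bases with LINC01145.

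A further 3 members were at 0 in 2 of the 3 PC3 R libraries. LINC00639 averaged 0.0690 ± 0.12 CPM in PC3 R and 1.97 ± 0.56 CPM in PC3 NC (log2 change -4.83 ± 1.37, adjusted p = 0.012, with -10.02 without PC3 R library 2 and -4.24 without PC3 R library 3). LINC02320 averaged 0.0637 ± 0.11 CPM in PC3 R and 1.52 ± 0.15 CPM in PC3 NC (log2 change -4.56 ± 1.44, adjusted p = 0.0202), with -9.64 and -3.98 without the same libraries, and was not called without PC3 NC library 3 (adjusted p = 0.0555). DESeq2 called neither LINC00639 (adjusted p = 0.151) nor LINC02320 (adjusted p = 0.186). LINC01814 averaged 0.0331 ± 0.057 CPM in PC3 R and 1.22 ± 0.17 CPM in PC3 NC (log2 change -5.10 ± 1.66, adjusted p = 0.0202). It was -9.32 without PC3 R library 3 and was not called without PC3 NC library 3, PC3 R library 1 or PC3 R library 2 (adjusted p from 0.0531 to 0.0641).

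Both lines together called 29 members, of which 15 changed in the same direction, 7 higher and 8 lower, and 14 in opposite directions. Neither line called 91, DU145 alone called 40 and PC3 alone called 75. These are 38.7%, 17.0% and 31.9% of members. Over all genes tested the shares were 42.0%, 14.1% and 18.5%, and over genes at the level rule 22.7%, 17.6% and 23.2%. The 29 are 12.3% of members, where 25.5% of all genes tested and 36.6% of genes at the level rule were called in both lines. The same direction was seen in 51.7% of the 29 members, against 52.6% of the 6163 genes called in both lines. At least 2-fold in both lines were 13 members, 10 in the same direction and 3 in opposite directions. For this count the share of all genes tested was not computed, so the split is a description. Without some single libraries, LINC01132, LINC00534, LINC00261, LINC00865, LINC02701 and LINC01012 of the 10 lost a call in at least 1 line. So did LINC02057 and LINC02263 of the 3. The members without a count in R or NC were 14 in DU145 and 5 in PC3.

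**Figure D4:**
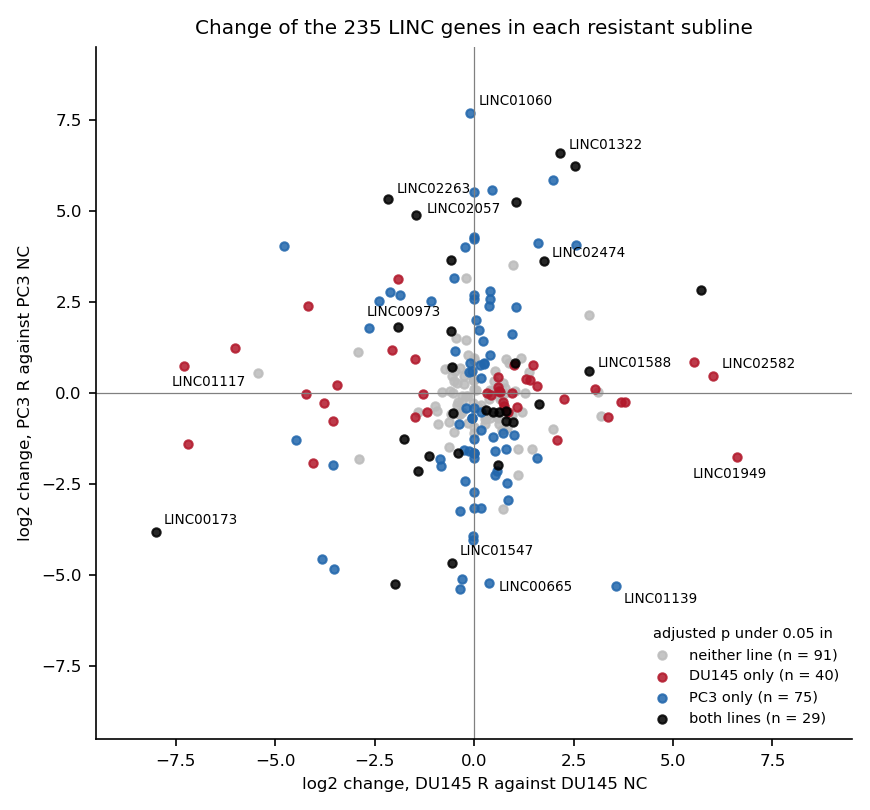
Each point is 1 of the 235 members, placed by its log2 change between resistant and parental cells in DU145 (horizontal) and PC3 (vertical), and colours show in which line it was called. The 29 members called in both lines lie in all 4 quadrants, and LINC02582 lies far to the right at 6.01 in DU145 and 0.46 in PC3.

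LINC02474, which overlaps LINC02257 on the other strand, was higher in both resistant sublines. LINC02474 at chr1:221966341-221984964 (plus strand) had 12.01, 12.2 and 9.56 CPM in DU145 R, against 2.67, 4.03 and 3.35 CPM in DU145 NC (3.36-fold, log2 change 1.75 ± 0.22, adjusted p = 8.27e-06). In PC3 R it had 8.68, 8.74 and 9.39 CPM, against 0.946, 0.639 and 0.577 CPM in PC3 NC (12.3-fold, log2 change 3.63 ± 0.24, adjusted p = 5e-09). The increase was larger in PC3, by 1.88 ± 0.31 log2 units (adjusted p = 0.000129). LINC01322 and LINC02864, which rose in DU145 R, also had counts in PC3 R and none in PC3 NC. LINC01322 reached 0.0599, 0.414 and 0.0852 CPM in PC3 R, at least 11.7-fold higher (adjusted p = 0.0141). BCHE, which overlaps LINC01322, averaged 8.28 ± 1.36 CPM in PC3 R and 1.62 ± 0.667 CPM in PC3 NC (log2 change 2.34 ± 0.22). Mixing of their reads was not tested. LINC02864 reached 0, 0.159 and 0.0568 CPM in PC3 R, 4.57-fold higher against the floor of 3 counts (adjusted p = 0.0173). Both bounds may be too high by the factor of 7.69 to 8.39 given above. The bound of LINC02864 lies under that factor, so its rise in PC3 R is not bounded. Without PC3 R library 2 the fitted log2 changes fell to 5.31 for LINC01322, against 6.60 with it, and to 4.04 for LINC02864, against 5.25 with it. With limma on log2(FPKM + 1) neither was called in PC3 (adjusted p = 0.923 and 0.943).

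LINC01132 averaged 2.96 ± 0.18 CPM in DU145 R and 0.514 ± 0.30 CPM in DU145 NC (log2 change 2.52 ± 0.80, adjusted p = 0.0221). It was not called without any 1 of 5 libraries, namely DU145 R libraries 1, 2 and 3 and DU145 NC libraries 2 and 3 (adjusted p from 0.0511 to 0.0804), nor with a replicate block (adjusted p = 0.0627). In PC3 R it had 0, 0.255 and 0.170 CPM and in PC3 NC no count, at least 9.14-fold higher (adjusted p = 0.00546). Its fitted log2 change in PC3 of 6.24 was 5.54 without PC3 R library 2, and limma on log2(FPKM + 1) did not call it (adjusted p = 0.562). LINC00534 had 0.241, 0 and 0.0454 CPM in DU145 R and no count in DU145 NC, 6.45-fold higher against the floor of 3 counts (adjusted p = 0.0139). As this lies under the factor of 7.69 to 8.39 given above, the rise in DU145 R is not bounded. In PC3 LINC00534 averaged 1.39 ± 0.15 CPM in PC3 R and 0.194 ± 0.079 CPM in PC3 NC (log2 change 2.82 ± 0.99, adjusted p = 0.033). It was not called in DU145 without DU145 R library 1 (fitted log2 change 3.72 against 5.69, adjusted p = 0.0930), in DU145 with limma on log2(FPKM + 1) (adjusted p = 0.792) or in PC3 without any 1 of the 6 PC3 libraries (adjusted p from 0.0542 to 0.0988).

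Lower in both resistant sublines were LINC00173, LINC00261, LINC00865, LINC02701 and LINC01012. LINC00173 had 0.0599, 0.255 and 0.284 CPM in PC3 R, against 1.88, 2.87 and 3.78 CPM in PC3 NC (14.1-fold lower, log2 change -3.82 ± 0.81, adjusted p = 0.0015), and no count in DU145 R. LINC00261 was low in DU145, at 0.0603, 0.154 and 0.379 CPM in DU145 R, against 0.881, 0.376 and 0.754 CPM in DU145 NC. The DU145 groups overlapped (log2 change -1.76 ± 0.48, adjusted p = 0.0145), and the value was -2.63 without DU145 R library 3. LINC00261 was not called in DU145 without DU145 NC library 1 (adjusted p = 0.0597), without DU145 R library 2 (adjusted p = 0.0581) in a fit on the DU145 groups alone (adjusted p = 0.0887) or with limma on log2(FPKM + 1) (adjusted p = 0.148). LINC00865 averaged 0.289 ± 0.068 CPM in DU145 R and 1.15 ± 0.042 CPM in DU145 NC (log2 change -1.98 ± 0.71, adjusted p = 0.0374), and was not called without any 1 of the 6 DU145 libraries (adjusted p from 0.0650 to 0.110) with a replicate block (adjusted p = 0.0732) or with no filter on low counts (adjusted p = 0.0625).

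LINC02701 averaged 0.214 ± 0.14 CPM in DU145 R and 0.576 ± 0.15 CPM in DU145 NC (log2 change -1.42 ± 0.43, adjusted p = 0.0146). In PC3 R it averaged 1.04 ± 0.10 CPM, against 4.63 ± 0.74 CPM in PC3 NC (log2 change -2.15 ± 0.41, adjusted p = 0.000378). In DU145 LINC02701 was -2.07 without DU145 R library 2 and was not called without DU145 NC library 1, DU145 R library 1 or DU145 R library 3 (adjusted p from 0.0552 to 0.0693), in a fit on the DU145 groups alone (adjusted p = 0.136) or with limma on log2(FPKM + 1) (adjusted p = 0.161). LINC01012 averaged 1.10 ± 0.37 CPM in DU145 R and 2.41 ± 0.20 CPM in DU145 NC (log2 change -1.13 ± 0.40, adjusted p = 0.0335). In PC3 R it averaged 0.578 ± 0.19 CPM, against 1.91 ± 0.62 CPM in PC3 NC (log2 change -1.72 ± 0.41, adjusted p = 0.00247). LINC01012 was not called in DU145 without any 1 of 5 DU145 libraries, all but DU145 R library 1 (adjusted p from 0.0601 to 0.122), with a replicate block (adjusted p = 0.0578) or with no filter on low counts (adjusted p = 0.0600).

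Opposite changes of at least 2-fold were called in LINC00973, LINC02057 and LINC02263. LINC00973 had 0.603, 0.416 and 0.803 CPM in DU145 R, against 1.82, 2.04 and 3.00 CPM in DU145 NC (3.75-fold lower, log2 change -1.91 ± 0.24, adjusted p = 8.66e-06). Its rise in PC3 R is given above, and the effects of the lines differed by 3.73 ± 0.32 log2 units (adjusted p = 1.13e-07). LINC02057, which overlaps SMIM15-AS1, had 3.16, 3.11 and 3.39 CPM in DU145 R, against 9.41, 9.40 and 7.84 CPM in DU145 NC (log2 change -1.46 ± 0.53, adjusted p = 0.0445). In PC3 it had 4.16, 4.71 and 6.86 CPM in PC3 R, against 0.399, 0.125 and 0 CPM in PC3 NC (log2 change 4.88 ± 0.66, adjusted p = 3.82e-05, and 6.35 without PC3 NC library 1). LINC02057 was not called in DU145 when 1 of 10 of the 12 libraries was left out (adjusted p from 0.0596 to 0.122), with a replicate block (adjusted p = 0.0883) or with no filter on low counts (adjusted p = 0.0913). LINC02263 had 0.738, 0.185 and 0.470 CPM in DU145 R, against 2.62, 2.13 and 1.55 CPM in DU145 NC (log2 change -2.17 ± 0.70, adjusted p = 0.021). In PC3 it had 0.958, 0.525 and 1.18 CPM in PC3 R, against 0.0591, 0 and 0 CPM in PC3 NC (log2 change 5.33 ± 0.91, adjusted p = 0.000153, and 8.88 without PC3 NC library 1). LINC02263 was not called in DU145 without DU145 NC library 1, DU145 NC library 2, DU145 R library 2 or DU145 R library 3 (adjusted p from 0.0515 to 0.0825).

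Whether the effect of resistance differed between the lines was tested as the PC3 change minus the DU145 change. It was called in 90 members (38.3%), 35 higher and 55 lower in PC3, and in 42.1% of all genes tested, 22.1% higher and 20.0% lower. Of all genes at the level rule 57.3% were called. The share of members lay below both backgrounds, given as a description. At least 2-fold were 78 members, where 21.1% of all genes tested were. The median difference was -0.25 log2 units over members and 0.02 over all genes. Of the 62 members at the rule in all 4 groups 32 were called (51.6%), 9 higher and 23 lower in PC3, against 64.2% of all genes at the rule in 4 groups.

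The members that follow were abundant in at least 1 group, and their differences had SEs from 0.10 to 0.39. LINC01547 fell far more in PC3 than in DU145, where it had 9.96, 9.46 and 8.10 CPM in DU145 R, against 13.0, 13.1 and 14.9 CPM in DU145 NC (log2 change -0.57 ± 0.08). The difference was -4.09 ± 0.11 log2 units (adjusted p = 3.14e-13). LINC02582 rose in DU145 by 6.01 log2 units, while its 548, 717 and 696 CPM in PC3 R and 470, 462 and 497 CPM in PC3 NC gave a log2 change of 0.46 ± 0.18 that was not called (adjusted p = 0.0713). The difference for LINC02582 was -5.56 ± 0.30 (adjusted p = 2.99e-07). LINC00342 was higher in DU145 R, at 75.5, 71.8 and 67.5 CPM against 48.4, 48.1 and 45.3 CPM in DU145 NC (log2 change 0.60 ± 0.07), and lower in PC3 R, with a difference of -2.56 ± 0.10 (adjusted p = 2.06e-11). LINC00857 went the other way, lower in DU145 R and higher in PC3 R, with a difference of 2.27 ± 0.15 (adjusted p = 6.05e-09). LINC00665 had 62.1, 55.1 and 59.5 CPM in DU145 R and 47.5, 46.5 and 43.4 CPM in DU145 NC, which was not called (log2 change 0.36 ± 0.16, adjusted p = 0.0853), and its difference was -5.57 ± 0.39 (adjusted p = 2.92e-08, and -7.40 without PC3 R library 3).

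Further differences among these members were smaller or rested on low counts. They were -2.30 ± 0.21 for LINC01588 (adjusted p = 2.7e-07) and -1.95 ± 0.17 for LINC01963 (adjusted p = 9.78e-08). With edgeR, LINC01588 was also called higher in PC3 R (log2 change 0.60, adjusted p = 0.00402). LINC01963 was called lower in PC3 R (log2 change -0.31), but not without any 1 of 9 libraries (adjusted p from 0.0612 to 0.215). LINC02246 gave 4.26 ± 0.66 (adjusted p = 0.000333), and its 0.392, 0.509 and 0.515 CPM in DU145 R and 0.491, 1.07 and 0.108 CPM in DU145 NC overlapped. LINC00707 gave 3.25 ± 0.80 (adjusted p = 0.00651), with 0.0449, 0.318 and 0.142 CPM in PC3 R and 0.148, 0 and 0.0624 CPM in PC3 NC. LINC01116, called in DU145 alone, had 14.7, 13.5 and 13.4 CPM in PC3 R and 13.0, 17.1 and 12.5 CPM in PC3 NC (difference 4.19 ± 0.53, adjusted p = 9.1e-06). The differences of LINC01204 and LINC01139, among the most extreme, lost their call without 1 library. LINC01204 had no count in DU145 R and 0, 0 and 0.154 CPM in DU145 NC, and its difference of 8.81 (adjusted p = 0.0032) was 4.04 without DU145 NC library 3 (adjusted p = 1.0). It was 9.40 without DU145 NC library 2. LINC01139 had 0, 0.0616 and 0 CPM in DU145 R and no count in DU145 NC, and its difference of -8.86 (adjusted p = 0.000722) was -5.30 without DU145 R library 2 (adjusted p = 1.0). Without these single libraries LINC01204 and LINC01139 had no count in either DU145 group, so that the difference could not be fitted.

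A comparison of PC3 NC with DU145 NC describes the cells from which the sublines arose. Of the 235 members 172 were called (73.2%), 102 higher and 70 lower in PC3 NC. Over all genes tested 60.3% were called, 30.9% higher and 29.5% lower, and over all genes at the level rule 76.6%. The members' share was above the first and near the second background. At least 2-fold were 151 members, where 35.9% of all genes tested were. The median log2 difference was 0.35 over members and 0 over all genes. Of the 62 members at the rule in all 4 groups 45 were called (72.6%), against 78.8% of all genes at the rule in 4 groups.

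Several members were abundant in one parental line and nearly silent in the other. LINC00261 was 804-fold higher in PC3 NC than in DU145 NC (log2 difference 9.65 ± 0.25, adjusted p = 1.19e-10), and LINC02582 was 191-fold higher (7.58 ± 0.26, adjusted p = 3.57e-09). LINC00839 averaged 4.73 ± 0.39 FPKM in PC3 NC and 0.0066 ± 0.0062 FPKM in DU145 NC (log2 difference 9.46 ± 0.45, adjusted p = 1.35e-09). LINC00632 had 42.5, 45.2 and 40.0 CPM in PC3 NC, against 0, 0.0901 and 0 CPM in DU145 NC (log2 difference 10.39 ± 0.55, adjusted p = 1.16e-08). LINC01547 was higher in PC3 NC by 3.83 ± 0.08 log2 units (adjusted p = 2.81e-15), while the levels of the sublines were 7.24 to 7.90 CPM in PC3 R and 8.10 to 9.96 CPM in DU145 R, a pair that was not tested. On the other side, LINC00707 was lower in PC3 NC (log2 difference -10.83 ± 0.36, adjusted p = 1.51e-10, and -11.98 without PC3 NC library 1), and LINC00665 was 20.0-fold lower.

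Other members had counts in 1 parental line alone. Against the floor of 3 counts over the group without counts, the bounds for members higher in PC3 NC were at least 688-fold for LINC01351, now named BRINP3-DT, 484-fold for LINC01139, 452-fold for LINC02315 and 385-fold for LINC00643. They were at least 234-fold for LINC01446, 199.9-fold for LINC02300, 188-fold for LINC02405 and 180.4-fold for LINC00326. LINC01351, the highest of these per length, had 9.39, 10.7 and 10.8 CPM in PC3 NC and no count in DU145 NC. For members lower in PC3 NC, without a count there, the bounds were at least 1503-fold for LINC02864, 1082-fold for LINC01322, 385-fold for LINC00842 and 285-fold for LINC01833. They were at least 145-fold for LINC01060, 143-fold for LINC00858 and 107-fold for LINC02531. All of these were called with edgeR's quasi-likelihood test, and all bounds may be too high by the factor given for DU145. LINC00842 shares 97.4% identity over 305 bases with ANXA8.

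A list of 53 LINC genes known from the cancer literature was also read. It was drawn up with earlier results of these data known, 38 of its genes were in the files and 26 were members. In DU145 R 5 of the 26 were higher, 7 lower and 14 not called, and in PC3 R likewise 5 were higher, 7 lower and 14 not called. Over all genes tested 39.6% and 44.0% were called, and over all genes at the level rule, which all 26 met, 54.1% and 59.7%. The 12 of 26 called in each line were thus above the first and under the second background, given as a description. Between parental lines 13 were higher and 11 lower in PC3 NC, where 60.3% of all genes tested and 76.6% at the level rule were called. The effect differed between lines in 16, where 42.1% and 57.3% were called. The median log2 change of the list was -0.11 in DU145 and -0.04 in PC3.

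LINC00963, the prostate cancer RNA named above, was higher in DU145 R with 111, 121 and 115 CPM, against 86.4, 91.0 and 103 CPM in DU145 NC (log2 change 0.31 ± 0.07, adjusted p = 0.00247). In PC3 it had 33.8, 33.4 and 30.0 CPM in PC3 R and 34.6, 30.1 and 32.3 CPM in PC3 NC, with a log2 change of 0.00 ± 0.07. LINC00667 was higher in DU145 R by 0.74 ± 0.11 log2 units (adjusted p = 3.83e-05), LINC00662 by 0.42 ± 0.09 (adjusted p = 0.00137, or 0.0529 with limma on log2(FPKM + 0.1)) and LINC00294 by 0.79 ± 0.14 (adjusted p = 0.000212). LINC00294 was lower in PC3 R (log2 change -0.49 ± 0.14, adjusted p = 0.00752). LINC00467, from which a micropeptide has also been reported, was higher in PC3 R by 0.81 ± 0.11 (adjusted p = 1.93e-05). LINC01578, known as CHASERR and as a repressor in cis of the chromatin remodeller CHD2, was higher in PC3 R by 0.59 ± 0.11 (adjusted p = 0.000272). LINC00520 had 5.66, 5.72 and 3.31 CPM in PC3 R, against 0.562, 1.04 and 0.920 CPM in PC3 NC (log2 change 2.54 ± 0.72, adjusted p = 0.00908). LINC01138, a PRMT5-binding RNA, was lower in PC3 R (log2 change -1.55 ± 0.25, adjusted p = 7.07e-05).

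The rest of the list mainly separated the lines. Higher in PC3 NC than in DU145 NC were LINC00649 (log2 difference 6.84 ± 0.46), LINC01234 (3.89 ± 1.15) and LINC00847 (2.03 ± 0.13). Lower in PC3 NC were LINC00472 (-1.93 ± 0.31), LINC00641 (-1.74 ± 0.13) and LINC00680 (-0.50 ± 0.17). None of these 6 was called in DU145, and in PC3 R only LINC00641 was (log2 change 0.42 ± 0.13, adjusted p = 0.0156, or adjusted p = 0.0734 without PC3 NC library 1).

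Long noncoding RNAs outside the LINC naming were set beside the members from a list of 57 genes, of which 49 were tested. In DU145 R 10 were higher, 13 lower and 26 not called, and in PC3 R 19 were higher, 10 lower and 20 not called, where 39.6% and 44.0% of all genes tested were called. MALAT1, a nuclear speckle RNA, averaged 661 ± 2.8 CPM in DU145 R and 316 ± 39 CPM in DU145 NC (log2 change 1.06 ± 0.07), against 201 ± 8.7 CPM in PC3 R and 348 ± 22 CPM in PC3 NC (log2 change -0.79 ± 0.07). NEAT1, the scaffold of paraspeckles, was likewise higher in DU145 R (0.90 ± 0.08) and lower in PC3 R (-1.40 ± 0.08). These counts are per gene and from poly(A)-selected RNA, so isoforms of MALAT1 and NEAT1 were not told apart. On the CPM scale, which does not correct for length, MALAT1 lay above every member within each group except LINC00261 and LINC02582 in PC3 R and PC3 NC.

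Since a LINC RNA may act on a neighbouring gene or share its regulation, each member was set beside the nearest protein-coding gene tested in the same fit. A neighbour within 100 kb was found for 181 members (177 distinct genes). In DU145 both were called in 33 pairs, 16 in the same direction and 17 in opposite directions. In PC3 both were called in 48 pairs, 31 in the same and 17 in opposite directions, and between parental lines in 98 pairs, 70 in the same and 28 in opposite directions. The same direction was thus seen in 48.5%, 64.6% and 71.4% of pairs, against 64.3%, 69.3% and 71.2% among protein-coding genes at the level rule and their nearest neighbours. Across the 181 pairs, Spearman's correlation of log2 changes was -0.04 in DU145, 0.22 in PC3 and 0.46 between parental lines, against 0.13, 0.28 and 0.36 for protein-coding genes and their nearest neighbours. These are correlations across genes, which are not independent replicates, and overlapping pairs may share reads.

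**Figure D5:**
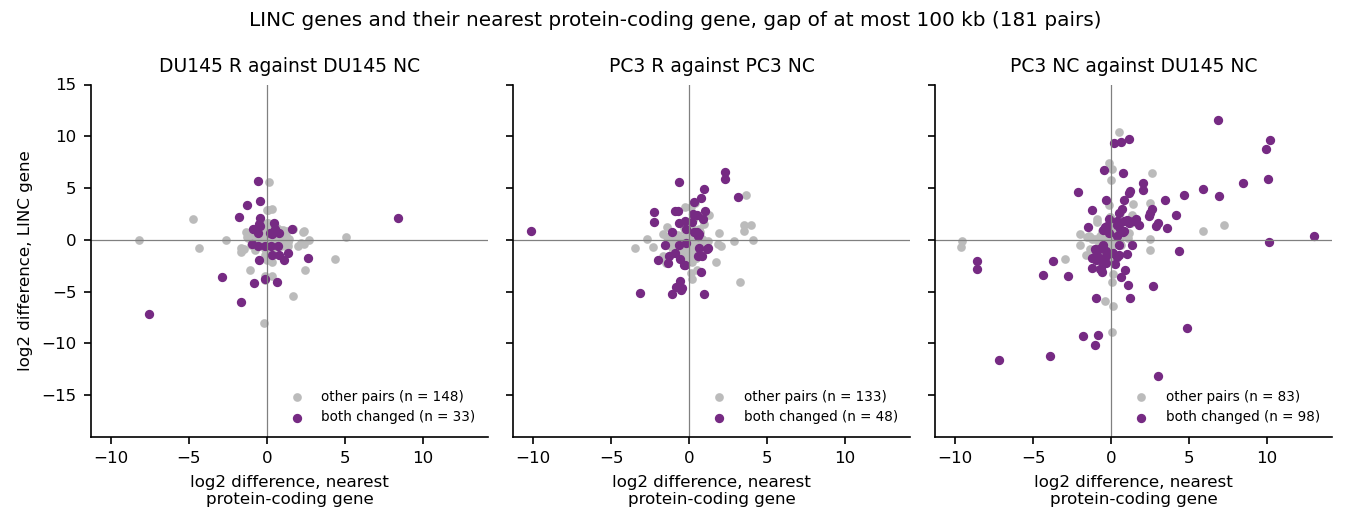
Each of 181 points sets the log2 change of a member (vertical) beside that of its nearest protein-coding gene (horizontal) in DU145, in PC3 and between the parental lines (3 panels), with pairs in which both were called in colour. The coloured points number 33, 48 and 98, and the cloud follows the diagonal most in the panel of parental lines.

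LINC00261 lies 2363 bases from FOXA2, a pioneer transcription factor. FOXA2 averaged 50.2 ± 2.9 CPM in PC3 NC and 0.0410 ± 0.071 CPM in DU145 NC, a log2 difference of 10.23 ± 0.35 beside 9.65 for LINC00261. In PC3 R FOXA2 averaged 52.8 ± 1.7 CPM, against the 50.2 CPM in PC3 NC, and did not pass the test (log2 change 0.07 ± 0.18, adjusted p = 0.808) while LINC00261 fell by 1.25 on the log2 scale. In DU145 both were low, and FOXA2 averaged 0.258 ± 0.075 CPM in DU145 R and 0.0410 CPM in DU145 NC (log2 change 2.64 ± 0.63, adjusted p = 0.00426 beside -1.76 for LINC00261). LINC01547 starts 81 bases from FAM207A, head to head. FAM207A averaged 19.3 ± 1.7 CPM in PC3 R and 26.3 ± 2.9 CPM in PC3 NC (log2 change -0.45 ± 0.10), a small change beside -4.67 for LINC01547. In DU145 the pair went opposite ways (log2 change 0.69 ± 0.10 for FAM207A beside -0.57 for LINC01547). LINC00342 and ANKRD36C, 2956 bases apart, moved alike in PC3, where ANKRD36C averaged 30.5 ± 0.61 CPM in PC3 R and 122 ± 7.7 CPM in PC3 NC (log2 change -2.001 ± 0.10 beside -1.96).

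LINC00665 lies 2697 bases from ZFP14, whose log2 change in PC3 was -1.11 ± 0.15 beside -5.21 for LINC00665. ZFP14 was lower in DU145 R (-0.50 ± 0.15), where LINC00665 was not called (0.36), and higher in PC3 NC than in DU145 NC (1.11 ± 0.15), where LINC00665 was lower (-4.32). LINC02009 lies 7001 bases from CCRL2, a chemerin-binding receptor, which averaged 15.8 ± 1.5 CPM in PC3 R and 3.19 ± 1.0 CPM in PC3 NC (log2 change 2.31 ± 0.38 beside 5.85). In DU145 CCRL2 had at most 0.0506 CPM on average. LINC01607 lies 253 bases from HEY1, a Notch target, head to head. HEY1 was lower in DU145 R (log2 change -1.26 ± 0.26), where LINC01607 was higher (3.37), and lower in PC3 R (-2.31 ± 0.18), where LINC01607 was not called (-0.67). LINC01814 lies 85942 bases from ID2, an inhibitor of DNA binding, which averaged 5.74 ± 1.1 CPM in PC3 R and 49.8 ± 5.4 CPM in PC3 NC (log2 change -3.12 ± 0.14 beside -5.10). ID2 was also lower in DU145 R (-0.68 ± 0.13), where LINC01814 was not called (-0.29). LINC00920 lies 15160 bases from BEAN1, which was lower in DU145 R (log2 change -2.85 ± 0.50 beside -3.55) and in PC3 R (-3.47 ± 0.53), where LINC00920 was not called (-0.78 ± 0.50, adjusted p = 0.244).

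The following pairs were chosen after their values were seen. LINC00659 lies 11350 bases from NTSR1, the neurotensin receptor. LINC00659 had no count in DU145 R, against 0, 0.646 and 0.185 CPM in DU145 NC, at least 18.0-fold lower (adjusted p = 0.00753), and NTSR1 averaged 0.0806 ± 0.076 CPM in DU145 R and 16.2 ± 1.0 CPM in DU145 NC (log2 change -7.61 ± 0.23). LINC01094 and ANXA3, 28329 bases apart, were both higher in PC3 R (log2 changes 4.12 ± 0.81 and 3.17 ± 0.12). LINC01152 and SOX9, a transcription factor 79710 bases away, moved in opposite directions in PC3 R (2.68 ± 0.65 and -2.24 ± 0.09), though both were higher in PC3 NC than in DU145 NC (5.45 ± 0.93 and 8.47 ± 0.13). LINC00643 lies 12640 bases from SYT16, a synaptotagmin, which was higher in PC3 NC by 6.89 ± 0.15 log2 units. LINC00668 and ARHGAP28, 3780 bases apart, went opposite ways between parental lines (-8.52 for LINC00668 and 4.85 ± 0.18 for ARHGAP28).

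Counting may blur some members. Of the 235, 138 overlap another gene, 81 of them only on the opposite strand, and 32 have a stretch of at least 300 bases with 97% identity or more in another gene's transcript. Those stretches include 399 bases of LINC00649 with 97.2% identity to SCRN3 and 1083 bases of LINC00680 with 97.3% identity to GUSBP1. Among the 97 members that overlap no other gene, 31 were called in DU145 (19 higher and 12 lower) and 38 in PC3 (17 higher and 21 lower), or 32.0% and 39.2%, where 39.6% and 44.0% of all genes tested were called. Among the 203 without such a copy, 65 were called in DU145 (32.0%) and 91 in PC3 (44.8%). Members named above that overlap another gene include LINC00294, LINC00326, LINC00467, LINC00472, LINC00511, LINC00534, LINC00643, LINC00649, LINC00662, LINC00665, LINC00667, LINC00668, LINC00680, LINC00707, LINC00842, LINC00847, LINC00857, LINC00865, LINC00963, LINC00973, LINC01138, LINC01139, LINC01152, LINC01446, LINC01547, LINC01578, LINC01588, LINC01607, LINC01665, LINC01833, LINC01949, LINC02236, LINC02246, LINC02261, LINC02263, LINC02300, LINC02320, LINC02454, LINC02591 and LINC02827.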

How the data were processed

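RNA was sequenced from poly(A)-selected libraries with a dUTP-marked second strand, per the labels' protocols. Per the submitters' processing notes, the tools included HISAT2 2.0.4, cutadapt 1.9 and StringTie 1.3.4d as well as edgeR and DESeq2, in an unstated order, and the build was hg18. The coordinates are nevertheless those of GRCh38: all 235 members were found in GENCODE on that build, 109 with the same start and end and 233 overlapping. Which program counted the reads, and with which strand setting, is not given in the sources used here. The authors deposited 1 table per sample of 38611 genes, holding read counts and FPKM values, and the deposited FPKM was rebuilt from the counts to within 0.1% for 24086 genes.

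The deposited counts were filtered with filterByExpr (24128 genes, all 235 members included), scaled with TMM and fitted in edgeR 4.0.16 (R 4.3.3) with 1 mean per group over all 12 libraries, which left 8 residual degrees of freedom. Contrasts were tested with the two-sided quasi-likelihood F test with Benjamini-Hochberg adjustment over all genes tested, and a gene was called at an adjusted p under 0.05. SEs of log2 changes are |log2 change| / sqrt(F). CPM levels are scaled by TMM, except in the member rule, which used library totals, and are mean ± SD. For a group without counts the fold is a bound against 3 counts over the group, and intervals cover counting error only. All such bounds, in either line, may be too high by the factor given for DU145. A self-test on simulated counts changed genes in DU145 R by known amounts. Of 100 genes changed by 1 log2 unit 60 were called in the right direction, and of 100 changed by 2 log2 units 47 were. It made 2 false calls. The simulation changed only these genes, drawn from all 24128, a far smaller share than was called in the data. This makes the adjusted cutoff stricter, so the recovery is not an estimate for the contrasts or for the members. A gene that was not called may still have changed.

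Members, lists and tests were chosen with earlier results of these data known. The text names the 8 members with the highest and the 8 with the lowest log2 change per contrast (called, at least 1 log2 unit, groups not overlapping), the 5 with the highest FPKM per group, those called with at least 1 log2 unit in both lines, the literature list, and others stated as chosen after values were seen. Same-numbered libraries showed no shared deviation (correlations from -0.10 to 0.04). This cannot exclude that same-numbered libraries were handled together, and the main test used no pairing. Alternatives were DESeq2 1.42.0, limma 3.58.1 on log2(FPKM + 1) and log2(FPKM + 0.1), other filters and scaling, a replicate block, the own groups only, and leaving out each library. Promoter sequences came from RefSeq (GRCh38.p14). Tables were handled in Python 3.11.15 with pandas 2.3.3 and SciPy 1.17.1. A marker gene of the list read is not reported here.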

Additional observations from a re-analysis of the deposited data

Results flagged for a closer look

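The resistance effect differed between PC3 and DU145 in 90 members (edgeR quasi-likelihood test of the difference, PC3 R minus PC3 NC less DU145 R minus DU145 NC, adjusted p under 0.05), and 43 of these are named here with their difference in log2 units. Causes were not tested.

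The effect was lower in PC3 for the abundant LINC01547 (-4.09), LINC02582 (-5.56), LINC00342 (-2.56), LINC01588 (-2.30) and LINC01963 (-1.95). The same held for LINC00665 (-5.57), abundant in DU145 with few counts in PC3 R, and for LINC00632 (-3.95), abundant in PC3 with few counts in DU145. It was lower by less for LINC00205 (-0.68), LINC00294 (-1.28), LINC00511 (-1.25), LINC00648 (-0.75), LINC00662 (-0.46), LINC00667 (-0.99), LINC00963 (-0.31) and LINC01138 (-1.29). It was also lower for members most of which had few counts in at least 1 group, namely LINC00865 (-3.26), LINC01139 (-8.86), LINC01607 (-4.04), LINC01949 (-8.36), LINC02084 (-2.90), LINC02236 (-4.03), LINC02324 (-4.70) and LINC02591 (-4.02). LINC01949 was -13.24 without DU145 NC library 1 and -11.64 without PC3 R library 2, and LINC01607 was -4.84 without DU145 NC library 1.

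The effect was higher in PC3 for LINC00857 (2.27), LINC00973 (3.73), LINC02246 (4.26), LINC00707 (3.25), LINC02474 (1.88), LINC01116 (4.19), LINC00467 (0.57) and LINC01578 (0.65). It was also higher for members most of which had few counts in at least 1 group, namely LINC00858 (5.05), LINC00920 (2.77), LINC01060 (7.78), LINC01117 (8.04), LINC01204 (8.81), LINC01940 (7.27), LINC02009 (3.87), LINC02057 (6.34), LINC02263 (7.50), LINC02381 (3.67), LINC02454 (6.58) and LINC02827 (5.12). Without 1 library, LINC01060 was 6.77 (PC3 R library 3), LINC01940 was 6.45 (DU145 NC library 3), LINC02057 was 7.81 and LINC02263 was 11.05 (PC3 NC library 1), LINC02454 was 12.30 (DU145 R library 3) and LINC02827 was 6.17 (PC3 NC library 3). The difference of LINC01060 was not called with limma on log2(FPKM + 1) (adjusted p = 0.275).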

How the results depend on the processing

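Of 154 values for named members 119 were called, and 87 kept their direction and call in each alternative run for them (20, except that the fit on the own groups alone gives no difference between lines), or 95 when the 12 that leave out 1 library are set aside. The number of members called in DU145, PC3, between parental lines and in the difference was 69, 104, 172 and 90, against 85, 111, 174 and 104 with DESeq2 and 69, 104, 173 and 90 with its size factors. Members called lower in DU145 R numbered 29, or 19 with no filter on low counts. Limma on log2(FPKM + 1) called 54 members higher and 85 lower in the difference, against 35 and 55. Leaving out 1 library gave 33 to 43 members higher and 19 to 28 lower in DU145, 40 to 50 and 41 to 56 in PC3, 97 to 103 and 60 to 72 between parental lines, and 33 to 39 and 48 to 53 in the difference. LINC02324 reversed, with a difference of -4.70 in the main test (adjusted p = 0.0372) and of 0.31 and 0.34 with limma on log2(FPKM + 1) and log2(FPKM + 0.1), neither called. It was not called without any 1 of 7 libraries (-3.27 without DU145 R library 1). With neighbours at 10 kb or less (90 pairs), the same and opposite directions numbered 5 and 10 in DU145, 15 and 4 in PC3, and 36 and 13 between parental lines. With a replicate block, 60, 98, 166 and 86 members were called. Whether the numbers pair the samples is not known, so a call lost there has no settled reading. The causes were not tested. Members under about 1 CPM rest on few counts, and changes there are the least certain.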
